A study of Mus musculus with 6 samples.

Results

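The nuclear receptor genes described here are those whose symbols begin with Nr and a digit, together with the genes of the PPAR, RXR, ROR, thyroid hormone, vitamin D and estrogen-related receptor families. Nr1d1, Nr1d2 and Nr3c1 were left out by the rule. The rule found 38 of the 24421 gene symbols measured. Of these, 37 encode receptors, and Nr2c2ap encodes a protein that binds the receptor Nr2c2. RNA was sequenced from 6 libraries in 2 groups of 3. The tumours were breast cancers, and their donors, aged 5 months and female, are labelled FVB/NJ; MMTV-Tg(LINK-A). The glands were mammary glands of females of that age, labelled FVB/NJ; Tg(LINK-A). Mice of both groups thus carry a LINK-A transgene, which encodes a long non-coding RNA, and the label of the gland donors does not name the MMTV promoter, a viral promoter active in mammary epithelium. The transgene label of the donors differs along with the tissue, so genotype and tissue cannot be told apart. The labels do not say that the 3 libraries of a group came from separate mice, so the p-values measure the spread between these samples, which may be technical.

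Nuclear receptors are transcription factors that mostly carry a DNA-binding zinc finger domain and a pocket for a fat-soluble ligand. PPARs, liver X receptors, the vitamin D receptor and thyroid hormone receptors bind DNA as pairs with an RXR, whereas estrogen-related receptors and RORs can bind alone and several members have no known natural ligand. In the mammary gland the epithelium lies in a fat pad, and PPARG is the factor on which the formation and upkeep of fat cells depend.

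Many of these receptors bind versions of the core element AGGTCA. Promoters of Pparg, Rxrg, Nr1h3 and Nr1h5, the 4 members with the smallest adjusted p between tumours and glands, are shown so that the element and the base makeup around it can be seen, at 2 starts each for Pparg and Rxrg. Each runs from 250 bases before to 50 bases after a transcription start (RefSeq, GRCm38.p6), 5′ to 3′ along the gene, with AGGTCA in capitals where it occurs on the printed strand.
Pparg, first start, chr6:115360894-115361193, plus strand: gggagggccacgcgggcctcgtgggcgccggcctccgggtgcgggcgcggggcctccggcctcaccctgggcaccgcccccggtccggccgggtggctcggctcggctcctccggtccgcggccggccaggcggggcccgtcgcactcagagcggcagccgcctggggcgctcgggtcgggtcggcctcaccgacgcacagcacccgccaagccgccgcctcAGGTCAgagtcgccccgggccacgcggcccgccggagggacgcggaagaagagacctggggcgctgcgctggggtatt
Pparg, start 3, chr6:115421816-115422115, plus strand: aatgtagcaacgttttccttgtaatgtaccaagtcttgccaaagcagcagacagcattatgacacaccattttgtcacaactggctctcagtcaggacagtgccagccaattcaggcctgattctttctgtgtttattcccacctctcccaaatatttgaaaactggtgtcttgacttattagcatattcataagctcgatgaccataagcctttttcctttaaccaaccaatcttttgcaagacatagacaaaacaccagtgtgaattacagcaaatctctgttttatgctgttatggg
Rxrg, first start, chr1:167598112-167598411, plus strand: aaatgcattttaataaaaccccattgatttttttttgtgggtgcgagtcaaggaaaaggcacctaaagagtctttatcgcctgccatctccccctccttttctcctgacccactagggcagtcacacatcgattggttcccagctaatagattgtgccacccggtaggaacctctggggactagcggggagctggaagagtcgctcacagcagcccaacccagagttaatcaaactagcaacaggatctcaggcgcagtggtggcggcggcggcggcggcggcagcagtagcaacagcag
Rxrg, start 2, chr1:167618015-167618314, plus strand: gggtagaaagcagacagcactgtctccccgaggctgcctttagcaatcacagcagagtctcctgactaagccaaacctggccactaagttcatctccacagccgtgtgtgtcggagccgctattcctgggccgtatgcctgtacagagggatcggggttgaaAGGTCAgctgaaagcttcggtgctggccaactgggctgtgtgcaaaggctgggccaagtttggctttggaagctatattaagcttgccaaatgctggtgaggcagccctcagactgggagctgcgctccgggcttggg
Nr1h3, first start, chr2:91195067-91195366, minus strand: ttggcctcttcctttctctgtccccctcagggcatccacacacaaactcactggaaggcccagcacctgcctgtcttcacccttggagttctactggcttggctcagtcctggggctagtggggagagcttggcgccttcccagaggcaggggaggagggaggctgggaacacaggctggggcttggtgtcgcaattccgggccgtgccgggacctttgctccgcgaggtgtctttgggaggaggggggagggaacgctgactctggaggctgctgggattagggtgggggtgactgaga
Nr1h5, chr3:102964084-102964383, minus strand: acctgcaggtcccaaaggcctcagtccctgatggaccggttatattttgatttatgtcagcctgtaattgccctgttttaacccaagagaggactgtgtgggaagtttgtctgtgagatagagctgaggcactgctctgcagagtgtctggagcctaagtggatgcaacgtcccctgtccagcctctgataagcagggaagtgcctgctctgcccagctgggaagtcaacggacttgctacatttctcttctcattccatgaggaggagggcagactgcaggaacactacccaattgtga
The element lies 28 bases before the first Pparg start and 88 bases before the Rxrg start 2. Pparg has 3 starts, and at start 2, not shown, a match on either strand lies 9 bases before the start. Of the members, 35 matched the promoter table, with 50 promoters, and the other 3 did not. The letters AGGTCA, read on both strands, occurred in 9 of these 50 promoters (18%) and in 5340 of all 32851 promoters of the same length (16.3%). The pair of elements spaced by 1 base that PPAR and RXR bind together, searched on both strands as AGGNCA repeated after 1 base of any kind, occurred in 0 of the 50 and in 125 of all promoters (0.381%). A match to it can also hold AGGTCA. The promoters shown differ most in CG dinucleotides, with 44 at the first Pparg start and 2 at start 3, while start 2 has 13. Rxrg had 13 at the first start and 9 at the other, Nr1h3 had 8 and Nr1h5 had 3, against a median of 15 over the members' promoters and of 7 over all. A match is a description of the letters and not a binding site.

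The deposited values were taken as FPKM, fragments per kilobase of transcript scaled to the mapped fragments of the library, so levels of different genes can be compared per length. The values summed to between 486080 and 582996 in the tumours and between 495985 and 510957 in the glands. Between 15000 and 15749 genes were above 0 in a tumour library and between 16218 and 16643 in a gland library. The number of reads is unknown, and 3 genes at 10 FPKM or more in 5 libraries were listed at 0 in the remaining 1, so a value of 0 is described only as listed at 0. Tissue markers moved with the groups. All 12 luminal epithelial genes were higher in tumours, with a summed level of 3573 to 3914 FPKM in tumours and 1341 to 1428 FPKM in glands. All 10 fat cell genes were lower, with a summed level of 65.7 to 167 FPKM in tumours and 3277 to 4308 FPKM in glands. Of these fat cell genes 3 were listed at 0 in tumour 3, 1 in tumour 1 and none in tumour 2 or the glands. Glands also differed among themselves. B lymphocyte genes summed to 140, 21.8 and 146 FPKM in glands 1, 2 and 3, and T lymphocyte genes to 134, 39.9 and 131 FPKM. In tumours 1, 2 and 3 the sums were 43.3, 34.9 and 1.13 FPKM for B and 24.8, 22.8 and 3.25 FPKM for T lymphocyte genes. A fit without glands 1 and 3, used below as an alternative, kept only the gland lowest in these genes. In bulk tissue, fewer cells of a type and less RNA per cell cannot be told apart.

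Of the 38 genes, 26 averaged 1 FPKM or more across all libraries and were tested. That mean spans both groups. Nr2f1, Ppara and Rxrg reached it only through the glands, and Nr1h5 only through the tumours. Whether these genes were tested thus depended on the group where they were high. Tumours and glands differed in 11 of the 26, or 42.3%, at an adjusted p under 0.05 (limma on log2(FPKM + 1), Benjamini-Hochberg adjustment over all 13364 tested genes), and 45.1% of all tested genes did. The receptor genes were thus called about as often as genes at large. Esrrg, Nr1h5 and Nr2c2ap were higher in tumours (3 of 26, background 21.9%), and Nr1h3, Nr2f1, Nr2f2, Ppara, Pparg, Rora, Rxrg and Thra were lower (8 of 26, background 23.1%). The median log2 difference was -0.09 over the 26 and 0.01 over all tested genes. The libraries of the 2 groups did not overlap in 13 of the 26, in which tumours lay above glands in 4 and below in 9, while 58.2% of all tested genes were separated in this way. With a mean of at least 5 FPKM required, 16 members were tested and 5 of them were called, 1 higher and 4 lower. These 16 kept their direction and call, and 4328 of all 9766 genes were called at that filter. With gland 2 as the only gland, without glands 1 and 3, no called member that was still tested changed direction. Nr2c2ap, Nr2f2, Rora and Thra lost their calls there, and Ppara and Nr2f1 fell under the filter. A fit with 1 gland has no spread between glands. Leaving out 1 library at a time left between 8 and 12 calls, and between 4217 and 6402 over all genes.

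**Figure D1:**
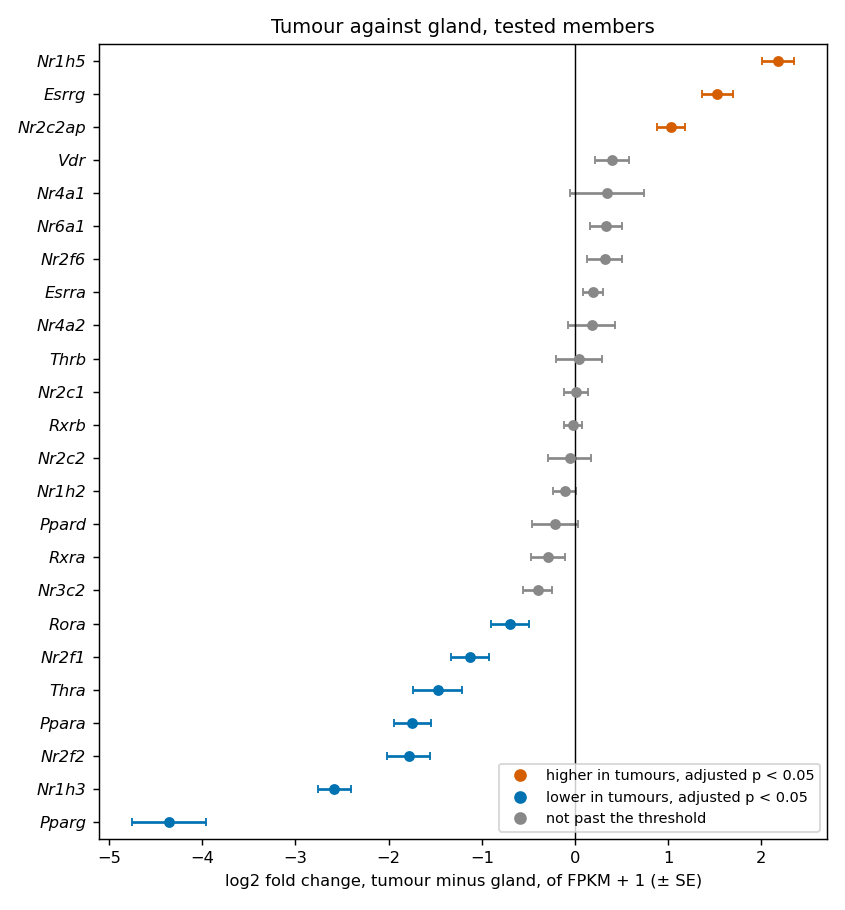
Log2 difference in log2(FPKM + 1), tumour minus gland, for 24 of the tested members, with bars of 1 standard error from limma (3 tumours and 3 glands). Orange (higher) and blue (lower) mark genes past an adjusted p of 0.05, from Pparg at -4.35 to Nr1h5 at 2.18, and most of the others lie near 0.

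The PPAR genes divided into 2 that were nearly missing from tumours and 1 that was present in all libraries. Pparg, the receptor of fat cell formation and of fatty acid ligands (chr6:115360951-115490399, GRCm38), had 0.932, 2.35 and 0 FPKM in tumours 1, 2 and 3, against 35.2, 37.1 and 39.0 FPKM in glands 1, 2 and 3. The highest tumour reached 6.32% of the gland mean, and the groups lay far apart. Its log2 difference was -4.35 (SE 0.40, adjusted p = 0.000274). Ppara, which drives the burning of fatty acids in liver and muscle (chr15:85734983-85802819), had 0.0791, 0.1002 and 0 FPKM in tumours and 2.93, 2.82 and 1.97 FPKM in glands. Its mean in tumours was 0.0598 FPKM, so Ppara reached the test only through the glands. All tumours lay below all glands, at low levels throughout, with a log2 difference of -1.74 (SE 0.20, adjusted p = 0.000590). With a pseudocount of 0.1 that difference was -4.11, since the added 1 FPKM outweighs levels this low. Ppard, the widely expressed member of the family, had 8.73, 12.2 and 18.4 FPKM in tumours and 15.8, 13.3 and 15.2 FPKM in glands. Tumour 3 was above every gland and tumours 1 and 2 were below them, and the log2 difference of -0.22 (SE 0.24) did not pass (adjusted p = 0.505).

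The makeup of the PPAR family differed between the tissues. The summed PPAR level was 9.74, 14.6 and 18.4 FPKM in tumours, against 53.9, 53.3 and 56.2 FPKM in glands. Pparg made up 9.56%, 16.1% and 0% of that sum in tumours and 65.2%, 69.7% and 69.5% in glands. Ppard made up 89.6%, 83.3% and 100% of it in tumours and 29.3%, 24.97% and 27.0% in glands. Ppard was therefore the main PPAR transcript of each tumour and Pparg that of each gland. These shares are descriptions of the same values and carry no test of their own.

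Fat cell markers and Pparg were low in the same libraries. The median fat cell marker stood at 2.34%, 2.21% and 0.257% of its gland mean in tumours 1, 2 and 3, and Pparg at 2.51%, 6.32% and 0%. Ppara stood at 3.07%, 3.89% and 0%. The part of fat cell content in the lower receptor levels was not tested. Genes that PPARG is known to switch on in fat cells were lower in tumours in 13 of 13 cases (background 23.1%), with a median log2 difference of -4.86. Cidec and Adipoq are in both this list and the fat cell markers, so the lists are not independent. The summed level of the PPARG targets was 173 to 398 FPKM in tumours and 8132 to 9512 FPKM in glands. Acsl1, which activates long-chain fatty acids, averaged 21.3 ± 0.731 FPKM in tumours and 277 ± 18.8 FPKM in glands (SD, n = 3 each; log2 difference -3.64, SE 0.10, adjusted p = 6.57e-06). Agpat2, an enzyme of triglyceride assembly, had a log2 difference of -3.85 (SE 0.13, adjusted p = 1.16e-05). Gpd1, which supplies the glycerol backbone, had one of -2.83 (SE 0.14, adjusted p = 2.78e-05). The values of these genes in tumours and glands did not overlap.

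Targets of PPARA and PPARD, mostly genes of fatty acid burning, were lower in tumours in 13 of 17 tested cases (background 23.1%). The other 4 did not pass, and the median log2 difference was -1.21. Without glands 1 and 3, 7 were lower. Ucp3, a mitochondrial carrier, averaged 2.44 ± 0.271 FPKM in tumours and 21.1 ± 4.41 FPKM in glands (log2 difference -2.67, SE 0.17, adjusted p = 7.16e-05). Cpt1b, the muscle form of the enzyme that admits fatty acids to mitochondria, was listed at 0, 0.226 and 0 FPKM in tumours, against 14.6, 34.3 and 13.5 FPKM in glands (adjusted p = 0.000167). Gland 2, which held the most Cpt1b, also held the most RNA of skeletal muscle genes. The acyl-CoA dehydrogenases were not alike. Acadm was at 42.6 ± 4.75 FPKM in tumours and 135 ± 18.1 FPKM in glands (log2 difference -1.64, SE 0.14, adjusted p = 0.000184), and Acadvl at 52.4 ± 2.70 FPKM in tumours and 120 ± 6.64 FPKM in glands (log2 difference -1.17, SE 0.10, adjusted p = 0.000173). Acadl was at 129 ± 17.4 FPKM in tumours and 124 ± 11.8 FPKM in glands and did not pass (adjusted p = 0.792). Plin2, a coat protein of lipid droplets, was at 474 ± 21.6 FPKM in tumours and 477 ± 31.0 FPKM in glands (adjusted p = 0.964).

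**Figure D2:**
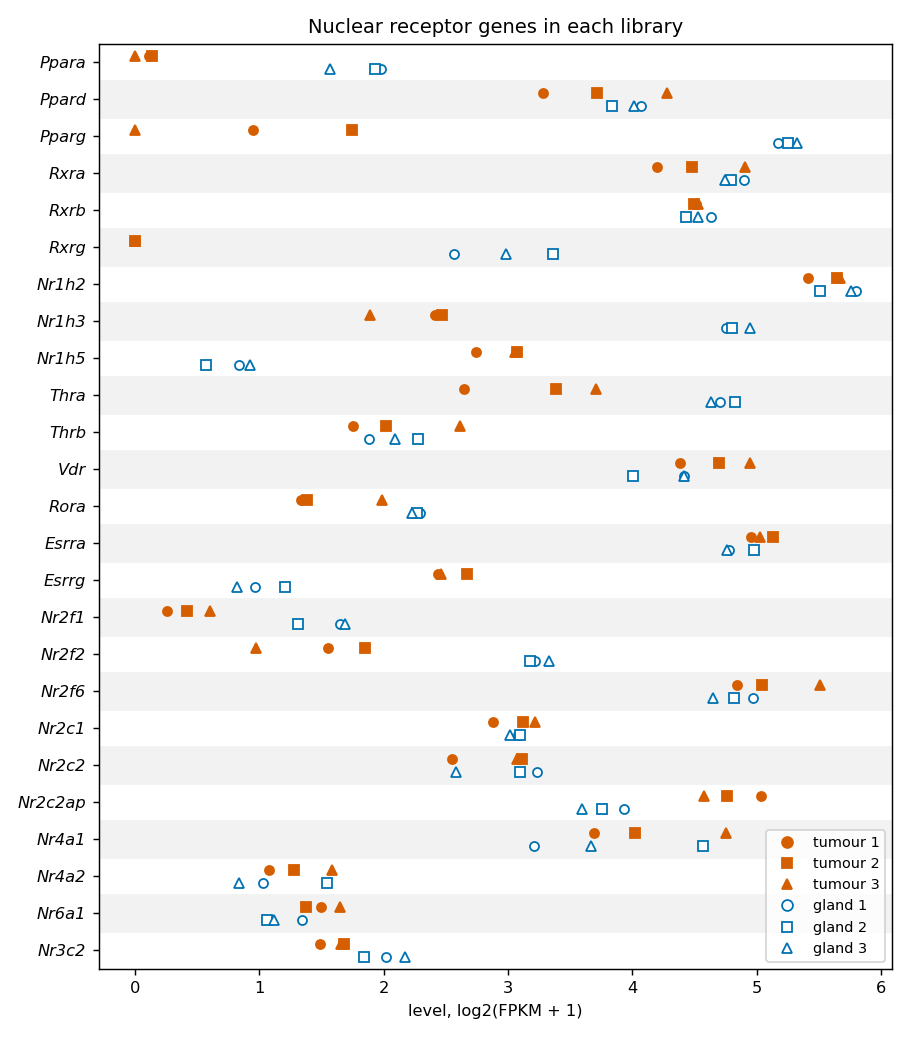
Level of 25 of the tested members on a log2(FPKM + 1) axis, with a filled orange point for each of 3 tumours above and an open blue point for each of 3 glands below. Pparg was between 0 and 2.35 FPKM in tumours and between 35.2 and 39.0 FPKM in glands, and Nr1h5 between 5.71 and 7.41 FPKM in tumours and between 0.489 and 0.904 FPKM in glands.

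RXRs are the shared partners of many other receptors. Rxrg, the member most associated with muscle, brain and fat (chr1:167598384-167639623), was listed at 0 FPKM in all 3 tumours, against 4.92, 9.31 and 6.92 FPKM in glands. The groups were separate (adjusted p = 0.000136), and no fold change is given because each tumour was listed at 0. Rxrg was highest in gland 2, where skeletal muscle genes summed to 11428 FPKM. In gland 3 they summed to 1020 FPKM beside Rxrg at 6.92 FPKM, and in gland 1 to 13.6 FPKM beside Rxrg at 4.92 FPKM, so the glands had the same order in both. The tumours had 5.79 to 26.8 FPKM of those genes beside Rxrg listed at 0, and the part of muscle in the result was not tested. Rxra, the main partner in epithelia and liver, had 17.4, 21.4 and 29.0 FPKM in tumours and 28.9, 26.8 and 25.8 FPKM in glands. Tumours 1 and 2 lay below all glands and tumour 3 above, and the log2 difference of -0.29 (SE 0.18) did not pass (adjusted p = 0.242). Without tumour 3 it was -0.47 and passed (adjusted p = 0.0198, range over alternatives 0.0198 to 0.616). Rxrb, expressed in most tissues, had 21.8, 21.5 and 22.1 FPKM in tumours and 23.9, 20.5 and 22.1 FPKM in glands (log2 difference -0.02, SE 0.10, adjusted p = 0.889). Its values in tumours all fell within the range of the glands.

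The summed RXR level was 39.2, 42.9 and 51.1 FPKM in tumours and 57.7, 56.7 and 54.8 FPKM in glands. Rxrg, listed at 0 in tumours, supplied 8.53%, 16.4% and 12.6% of it in glands. The listed RXR values were thus those of Rxra and Rxrb in tumours, and mostly theirs in glands.

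**Figure D3:**
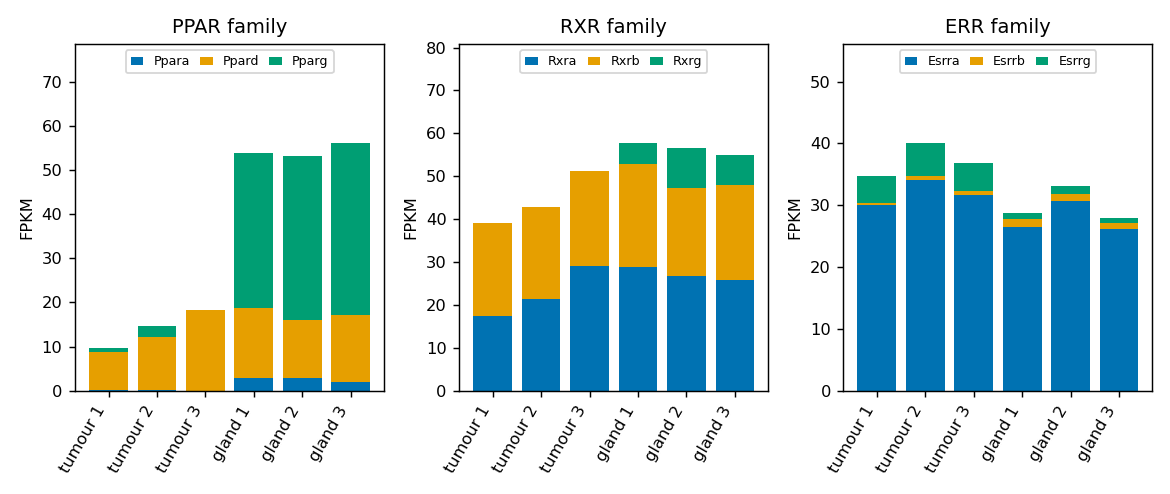
Summed FPKM of the PPAR, RXR and ERR families (estrogen-related receptors) in each library, stacked by member, tumours left and glands right. The PPAR sum was 9.74 to 18.4 FPKM in tumours, nearly all of it Ppard, and 53.3 to 56.2 FPKM in glands, most of it Pparg.

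Liver X receptors sense oxidised cholesterol and control cholesterol export and fatty acid synthesis. Nr1h2, the LXR found in most tissues, was the most abundant member in both groups, with 41.7, 49.2 and 49.9 FPKM in tumours and 54.8, 44.5 and 53.2 FPKM in glands. The groups overlapped (log2 difference -0.11, SE 0.13, adjusted p = 0.503). Nr1h3, the LXR of liver, fat and macrophages (chr2:91184061-91202834), had 4.31, 4.53 and 2.71 FPKM in tumours and 26.0, 27.0 and 29.9 FPKM in glands. It averaged 3.85 ± 0.997 FPKM in tumours and 27.7 ± 2.03 FPKM in glands (SD, n = 3 each; log2 difference -2.58, SE 0.18, adjusted p = 9.26e-05). Every tumour held between 9.79% and 16.4% of the gland mean. Of 7 macrophage genes, 4 were lower in tumours (1 without glands 1 and 3) and 3 did not pass, and their sum was 272 to 601 FPKM in tumours and 570 to 636 FPKM in glands. The median macrophage gene stood at 64.1%, 68.4% and 43.6% of its gland mean in tumours 1, 2 and 3, above Nr1h3, and the median fat cell gene stood below it. The part of either cell type in the result was not tested.

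Of the farnesoid X receptors, Nr1h5 was the more abundant and the one tested. Nr1h5 encodes the beta form, described in mice as a receptor for lanosterol (chr3:102939658-102964133). It had 5.71, 7.41 and 7.33 FPKM in tumours and 0.787, 0.489 and 0.904 FPKM in glands. With 6.81 ± 0.958 FPKM in tumours and 0.726 ± 0.214 FPKM in glands (SD, n = 3 each), it had a log2 difference of 2.18 (SE 0.17, adjusted p = 0.000157), the largest rise among the members tested. Nr1h4, the bile acid receptor of liver and gut, had 0.265, 0.203 and 0.248 FPKM in tumours and 0, 0 and 0.0863 FPKM in glands. It did not reach the mean for testing. Nr1i2, the receptor of foreign compounds also called PXR, had 0.140, 0.232 and 0.165 FPKM in tumours and was listed at 0 in all glands. Both were near the floor of the table, although all tumours were above all glands. In the limma fit with no filter on low values, which tested them, the adjusted p was 0.0133 for Nr1h4 and 0.00828 for Nr1i2. That fit also took in 6247 genes listed at 0 in all libraries, which enter its estimate of the spread. Its p-values for genes this low are therefore uncertain. The rise of Nr1h5 went along with the luminal epithelial genes, which were higher in tumours in 12 of 12 cases with a median log2 difference of 1.43, and their part in it was not tested.

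Of 13 tested LXR targets, 1 was higher in tumours (background 21.9%), 4 were lower (background 23.1%) and 8 did not pass. The median log2 difference was -0.49. The difference was below 0 in 12 of the 13 and above 0 in Scd2. With quantile normalisation, and equally without tumour 3, 8 passed, 1 higher and 7 lower. Without glands 1 and 3, 2 were lower. Scd1, which makes monounsaturated fatty acids in fat and liver, was at 232 ± 57.9 FPKM in tumours and 4403 ± 95.3 FPKM in glands (log2 difference -4.28, SE 0.21, adjusted p = 2.94e-05). Its relative Scd2 was higher, at 125 ± 12.7 FPKM in tumours and 73.8 ± 5.78 FPKM in glands (log2 difference 0.75, SE 0.12, adjusted p = 0.00255, or 0.0599 without glands 1 and 3). Fasn, the fatty acid synthase, was at 81.9 ± 25.6 FPKM in tumours and 957 ± 123 FPKM in glands (log2 difference -3.57, SE 0.25, adjusted p = 9.45e-05). Abca1, the cholesterol exporter, was at 9.50 ± 1.89 FPKM in tumours and 20.2 ± 1.41 FPKM in glands (log2 difference -1.03, SE 0.16, adjusted p = 0.00220, or 0.112 without glands 1 and 3). The lipoprotein genes Apoe and Apoc1 did not pass, with adjusted p = 0.0613 and 0.0503, and tumour 3 was their lowest library. Apoe had 1002, 963 and 540 FPKM in tumours, against 1314, 1191 and 1423 FPKM in glands. Apoc1 had 62.3, 39.6 and 3.06 FPKM in tumours, against 140, 166 and 137 FPKM in glands. Without tumour 3 the adjusted p was 0.0446 for Apoe and 0.00143 for Apoc1, and without tumour 1 it was 0.0399 and 0.0259.

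The vitamin D receptor, which mediates calcium uptake and is found in mammary epithelium, had 19.8, 24.9 and 29.9 FPKM in tumours and 20.3, 15.0 and 20.4 FPKM in glands. Vdr in tumour 1 lay among the glands and the other tumours above them (log2 difference 0.40, SE 0.19, adjusted p = 0.124). Without tumour 1 the difference was 0.54 and passed (adjusted p = 0.0491, range over alternatives 0.0491 to 0.317). Of 4 tested target genes, 1 was higher (background 21.9%). This was Spp1, the secreted phosphoprotein osteopontin, with 1221, 1057 and 421 FPKM in tumours and 204, 186 and 131 FPKM in glands (log2 difference 2.25, SE 0.41, adjusted p = 0.00437). Trpv6, a calcium channel, had 10.8, 10.1 and 0.507 FPKM in tumours and 0.721, 0.803 and 0.974 FPKM in glands. Tumours 1 and 2 were above every gland and tumour 3 below, so the gene did not pass (adjusted p = 0.114, or 6.08e-05 without tumour 3). Atp2b1, a calcium pump, had 18.8, 22.4 and 18.7 FPKM in tumours and 16.4, 14.7 and 16.0 FPKM in glands (log2 difference 0.32, SE 0.11, adjusted p = 0.0554, or 0.0418 without tumour 3). All 4 targets passed, and were higher, without tumour 3 or with quantile normalisation. Without gland 2, 2 passed, and without glands 1 and 3, 0 passed in limma and 1 had an unadjusted p under 0.05.

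Thyroid hormone receptors set the metabolic rate of many tissues. Thra, the widely expressed form (chr11:98740638-98769006), had 5.27, 9.49 and 12.1 FPKM in tumours and 25.1, 27.4 and 23.9 FPKM in glands. It averaged 8.95 ± 3.44 FPKM in tumours and 25.5 ± 1.79 FPKM in glands (SD, n = 3 each; log2 difference -1.47, SE 0.26, adjusted p = 0.00403). The call was lost with gland 2 as the only gland (adjusted p = 0.115, range over alternatives 0.00138 to 0.115). Thra shares 263 exonic bases with Nr1d1 on the opposite strand, and no source used here says whether the counting took account of strand. Nr1d1 was lower too, with 5.60, 7.23 and 14.9 FPKM in tumours and 32.1, 40.8 and 34.9 FPKM in glands (adjusted p = 0.00267). Without strand, reads of the shared bases cannot be told apart, so the value of Thra is uncertain. Another member, Nr1i3, shares 3304 exonic bases with Tomm40l on the opposite strand. Tomm40l had 13.7 to 20.6 FPKM over the libraries, and Nr1i3 was listed at 0 in all of them. Whether the same holds for Thra was not tested. Thrb, the form of liver and the pituitary, had 2.37, 3.06 and 5.13 FPKM in tumours and 2.69, 3.84 and 3.27 FPKM in glands, with full overlap (log2 difference 0.05, SE 0.25, adjusted p = 0.897). Thra supplied 68.97%, 75.6% and 70.2% of the summed receptor level in tumours and 90.3%, 87.7% and 88.0% in glands.

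Of 6 tested genes controlled by thyroid hormone, 4 were lower in tumours (background 23.1%) and 2 did not pass. Ucp1, the heat-producing carrier of brown fat, was at 1.28, 0.989 and 0 FPKM in tumours and 98.7, 122 and 86.7 FPKM in glands (adjusted p = 3.83e-05). All 6 brown fat genes were lower, with a sum of 7.40 to 26.2 FPKM in tumours and 410 to 680 FPKM in glands. Me1, which makes NADPH for lipid synthesis, was at 78.0 ± 24.2 FPKM in tumours and 375 ± 27.0 FPKM in glands (log2 difference -2.29, SE 0.21, adjusted p = 0.000268). Thrsp, a lipogenic nuclear protein, was at 640 ± 207 FPKM in tumours and 1783 ± 58.3 FPKM in glands (log2 difference -1.53, SE 0.25, adjusted p = 0.00288, or 0.122 without glands 1 and 3). Klf9, a zinc finger factor, was at 12.3 ± 3.36 FPKM in tumours and 22.9 ± 4.28 FPKM in glands (log2 difference -0.86, SE 0.21, adjusted p = 0.0145), and lost its call without tumour 2 (0.0543), with no filter (0.0585) and without glands 1 and 3 (0.103). Hr, a corepressor, was at 12.6 ± 3.51 FPKM in tumours and 8.16 ± 0.798 FPKM in glands and did not pass (adjusted p = 0.0733, or 0.00768 without tumour 1). Atp2a1, the calcium pump of fast muscle, had 0, 0.250 and 1.79 FPKM in tumours and 1.26, 1177 and 118 FPKM in glands. It followed the muscle genes, which were high in glands 2 and 3, and did not pass (adjusted p = 0.0655, or 0.00240 without gland 1).

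The RORs take part in the daily clock and in immune and lipid gene control. Rora had 1.52, 1.61 and 2.96 FPKM in tumours and 3.91, 3.82 and 3.69 FPKM in glands, with all tumours below all glands. Its log2 difference of -0.70 (SE 0.21, adjusted p = 0.0310) was the smallest that passed among the members. It no longer passed when any library other than tumour 3 was left out (adjusted p 0.0729 to 0.0981), with quantile normalisation (-0.29, adjusted p = 0.284), with no filter (0.0904) or with the replicate numbers as a block (0.0657). Rorb, a receptor of the nervous system, was between 0 and 0.0480 FPKM in tumours and between 0 and 0.0531 FPKM in glands.

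Estrogen-related receptors resemble the estrogen receptor but bind no estrogen and act on mitochondrial genes. Esrrg (chr1:187608791-188214885) had 4.43, 5.36 and 4.51 FPKM in tumours and 0.951, 1.31 and 0.769 FPKM in glands. At 4.77 ± 0.515 FPKM in tumours and 1.01 ± 0.273 FPKM in glands (SD, n = 3 each), it was higher, with a log2 difference of 1.53 (SE 0.17, adjusted p = 0.000571, range over alternatives 0.000238 to 0.0356). Esrra, the most abundant of the 3, had 30.1, 34.1 and 31.6 FPKM in tumours and 26.5, 30.6 and 26.2 FPKM in glands (log2 difference 0.20, SE 0.11, adjusted p = 0.180). Gland 2 lay within the tumour range. Esrra shares 73 exonic bases with Trmt112 on the opposite strand and 91 with Mir6990 on its own strand, so its value is uncertain too. Esrrb, best known from stem cells, had 0.3001, 0.618 and 0.702 FPKM in tumours and 1.35, 1.15 and 1.02 FPKM in glands, below the mean for testing. All tumours lay below all glands, but Esrrb did not pass in the limma fit with no filter (adjusted p = 0.0517). Esrrg made up 12.7%, 13.4% and 12.2% of the family's sum in tumours and 3.30%, 3.95% and 2.75% in glands.

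Genes of energy metabolism that ERRs are known to act on were lower in tumours in 8 of 12 cases (background 23.1%). The other 4 were not past the threshold, and the median log2 difference was -0.85. Without a filter on low values 5 passed, as without glands 1 and 3, and with a fold of at least 2 required 2 passed. Ogdh, of the citric acid cycle, was at 28.1 ± 3.22 FPKM in tumours and 68.8 ± 7.20 FPKM in glands (log2 difference -1.26, SE 0.13, adjusted p = 0.000418). Cs, citrate synthase, was at 101 ± 7.13 FPKM in tumours and 173 ± 11.7 FPKM in glands (log2 difference -0.76, SE 0.11). Sdha, of succinate dehydrogenase, was at 98.4 ± 5.98 FPKM in tumours and 173 ± 20.6 FPKM in glands (log2 difference -0.80, SE 0.12). All 3 passed, and gland 2 was the highest library in each. The ATP synthase gene Atp5b was at 816 ± 101 FPKM in tumours and 893 ± 98.5 FPKM in glands (adjusted p = 0.511), and Mdh2, malate dehydrogenase, at 262 ± 37.4 FPKM in tumours and 296 ± 49.6 FPKM in glands (adjusted p = 0.430). Gland 2 also had the highest sum of skeletal muscle genes, at 11428 FPKM, and of brown fat genes, at 680 FPKM. Most of that excess of brown fat genes was Cox8b and Cox7a1. Cox8b had 176, 313 and 193 FPKM and Cox7a1 44.2, 143 and 46.6 FPKM in glands 1, 2 and 3. Ucp1 and Dio2 were also highest in gland 2, but Cidea and Elovl3 were highest in gland 1. All 6 brown fat genes were lower in tumours. The part of muscle and brown fat in these differences was not tested.

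**Figure D4:**
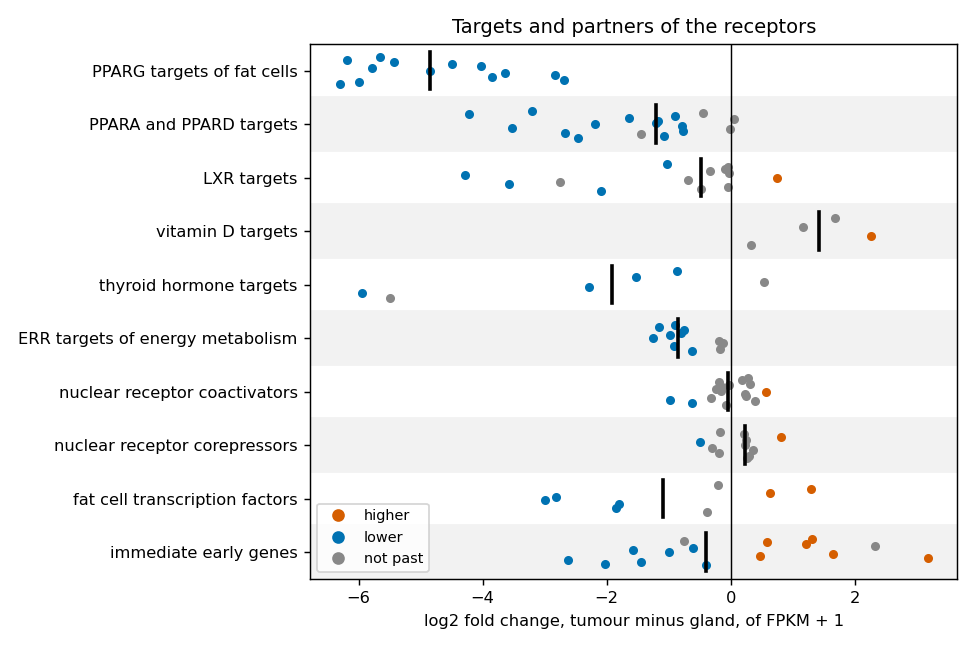
Log2 difference in log2(FPKM + 1), tumour minus gland, of each tested gene in the lists of receptor targets and partners, 1 point per gene, orange where higher, blue where lower and grey where not past the threshold, with a line at the list's median. A gene listed at 0 in all tumours is left out. PPARG targets (13 genes) were all lower, with a median of -4.86, while LXR targets (13 genes) had a median of -0.49 and vitamin D targets (4 genes) one of 1.42.

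COUP-TFs are receptors without a known natural ligand that shape mesenchyme and vessels. Nr2f2, a marker of venous and lymphatic vessels and of stromal cells (chr7:70351944-70366735), had 1.93, 2.60 and 0.966 FPKM in tumours and 8.30, 8.06 and 9.08 FPKM in glands. It averaged 1.83 ± 0.821 FPKM in tumours and 8.48 ± 0.533 FPKM in glands (SD, n = 3 each; log2 difference -1.79, SE 0.23, adjusted p = 0.00107), and the call was lost with gland 2 as the only gland (0.0726). Nr2f1 had 0.194, 0.336 and 0.516 FPKM in tumours and 2.13, 1.48 and 2.23 FPKM in glands (log2 difference -1.12, SE 0.20, adjusted p = 0.00436). Its mean in tumours was 0.349 FPKM, so Nr2f1 reached the test only through the glands. Tumours lay below glands in both genes, and the size for Nr2f1 was -2.23 with a pseudocount of 0.1 and -0.66 with quantile normalisation. Nr2f6, the third of the family, had 27.8, 32.1 and 44.5 FPKM in tumours and 30.4, 27.2 and 24.2 FPKM in glands (log2 difference 0.32, SE 0.19, adjusted p = 0.202). Nr2f6 shares 1622 exonic bases with Ocel1, Nr2f2 643 with B130024G19Rik and Nr2f1 123 with A830082K12Rik, all on the opposite strand. B130024G19Rik and A830082K12Rik were listed at 0 in all tumours, and at 0.261 to 0.771 FPKM and 0.213 to 0.597 FPKM in glands. Without strand the values of Nr2f6, Nr2f2 and Nr2f1 are uncertain too. Nr2f6 accounted for 92.9%, 91.6% and 96.8% of the family's sum in tumours and 74.4%, 74.1% and 68.1% in glands.

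Stromal and vessel markers were low in the same tumours. All 7 fibroblast genes and all 8 blood vessel genes were lower, as were 3 of 4 lymphatic genes, the other not passing. Without gland 1, and likewise without gland 3, 1 lymphatic gene was lower. Without both, 1 fibroblast gene and 4 blood vessel genes were lower, and of the 2 lymphatic genes then tested with limma 0 passed, and 0 at an unadjusted p under 0.05. Fibroblast genes summed to 137 to 468 FPKM in tumours and 1878 to 2018 FPKM in glands. Blood vessel genes summed to 26.9 to 57.8 FPKM in tumours and 257 to 299 FPKM in glands, and lymphatic genes to 1.83 to 6.74 FPKM in tumours and 13.5 to 20.8 FPKM in glands. As a share of the gland mean, Nr2f2 stood at 22.7%, 30.7% and 11.4% in tumours 1, 2 and 3, against a median of 18.4%, 22.2% and 5.22% for fibroblast genes and of 20.8%, 21.8% and 12.0% for blood vessel genes. Nr2f2 and both lists were lowest in tumour 3, whereas Nr2f1 was highest there, at 26.5%. The part of these cells in the result was not tested.

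**Figure D5:**
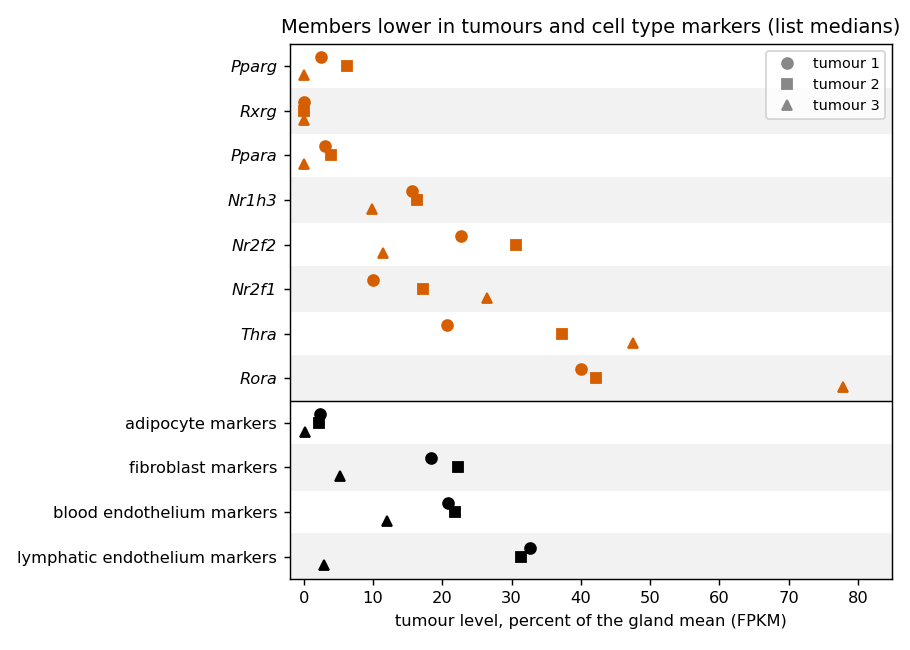
Level of each lower member in tumours 1, 2 and 3 as a percent of the gland mean (orange, 1 symbol per tumour), above the median of the fat cell, fibroblast, blood vessel and lymphatic marker lists (black). Pparg (0% to 6.32%) and Ppara (0% to 3.89%) lie near the fat cell markers, Nr2f2 (11.4% to 30.7%) near the blood vessel markers, and Rora (40.0% to 77.8%) and Thra (20.7% to 47.5%) above all of these lists in tumour 3.

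The testicular receptors Nr2c1 and Nr2c2, which can repress other receptors' targets, overlapped between the tissues. Nr2c1 had 6.35, 7.71 and 8.32 FPKM in tumours and 7.45, 7.57 and 7.08 FPKM in glands (log2 difference 0.01, SE 0.13, adjusted p = 0.964). Nr2c2 had 4.86, 7.66 and 7.43 FPKM in tumours and 8.43, 7.54 and 5.00 FPKM in glands (log2 difference -0.06, SE 0.23, adjusted p = 0.855), and shares 4590 exonic bases with Mrps25 on the opposite strand. Neither differed beyond the spread between libraries. Nr2c2ap, whose product binds Nr2c2 and holds back its activity, was higher, with 31.9, 26.1 and 22.9 FPKM in tumours and 14.3, 12.5 and 11.1 FPKM in glands. At 27.0 ± 4.54 FPKM in tumours and 12.6 ± 1.58 FPKM in glands (SD, n = 3 each), the log2 difference was 1.03 (SE 0.15, adjusted p = 0.00200, or 0.0702 without glands 1 and 3). It shares 1341 exonic bases with Rfxank on the opposite strand, which had 7.91, 3.57 and 8.58 FPKM in tumours and 7.22, 5.99 and 6.56 FPKM in glands and did not pass (adjusted p = 0.901). Reads of bases shared by 2 genes could not be told apart without strand, so the values of Nr2c2ap and Nr2c2 are uncertain.

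The NR4A receptors are switched on within minutes by many stimuli. Nr4a1 had 12.0, 15.2 and 26.0 FPKM in tumours and 8.26, 22.7 and 11.7 FPKM in glands (log2 difference 0.34, SE 0.40, adjusted p = 0.518). Nr4a2 had 1.11, 1.43 and 1.99 FPKM in tumours and 1.04, 1.91 and 0.787 FPKM in glands (log2 difference 0.18, SE 0.25, adjusted p = 0.592). Both varied widely within each group and were highest in gland 2 among the glands. Nr4a3 had 0.212, 0.402 and 0.237 FPKM in tumours and 0.955, 0.809 and 1.30 FPKM in glands, below the mean for testing. The limma fit with no filter, uncertain for genes this low, gave it an adjusted p of 0.0180.

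Immediate early genes, which respond as quickly, moved in both directions, 6 higher (background 21.9%) and 7 lower (background 23.1%) of 15 tested. Ier3, a stress-response gene, was at 95.1 ± 30.0 FPKM in tumours and 9.39 ± 1.59 FPKM in glands (log2 difference 3.18, SE 0.23, adjusted p = 0.000109), and Atf3, a stress-induced factor, at 32.4 ± 3.60 FPKM in tumours and 9.75 ± 1.98 FPKM in glands (log2 difference 1.65, SE 0.16, adjusted p = 0.000331). Dusp1, a phosphatase that ends MAP kinase signals, was at 9.15 ± 0.142 FPKM in tumours and 40.7 ± 8.05 FPKM in glands (log2 difference -2.02, SE 0.15, adjusted p = 0.000118). Egr2, a zinc finger factor, was at 1.42 ± 0.263 FPKM in tumours and 6.17 ± 0.522 FPKM in glands (log2 difference -1.57, SE 0.15, adjusted p = 0.000335). Fosb had 1.12, 2.29 and 1.53 FPKM in tumours and 1.86, 7.70 and 2.47 FPKM in glands and did not pass (adjusted p = 0.184). Jund had 163, 174 and 2.03 FPKM in tumours and 2.05, 1.69 and 83.4 FPKM in glands, falling into high and low libraries inside both groups (adjusted p = 0.363). Without glands 1 and 3, 6 of the list were called, 3 higher and 3 lower, and with a fold of at least 2 required 8 were called, 4 in each direction.

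Nr6a1, a receptor of germ cells and embryos, had 1.83, 1.59 and 2.13 FPKM in tumours and 1.54, 1.09 and 1.18 FPKM in glands. Nr3c2, the mineralocorticoid receptor, had 1.80, 2.20 and 2.16 FPKM in tumours and 3.06, 2.58 and 3.50 FPKM in glands. In both the groups lay apart but the difference did not pass. For Nr6a1 the log2 difference was 0.33 (SE 0.17, adjusted p = 0.164, or 0.0129 with quantile normalisation, where it was 0.80). For Nr3c2 it was -0.40 (SE 0.16, adjusted p = 0.0794), and 0.04 with quantile normalisation. Nr5a2, a receptor of liver and gonads that acts on cholesterol and steroid genes, had 0, 0.0803 and 0 FPKM in tumours and 0.854, 1.15 and 1.07 FPKM in glands. Nr5a2 was below the mean for testing. The limma fit with no filter, uncertain for genes this low, gave it an adjusted p of 0.00180. Its relative Nr5a1, the steroidogenic factor of adrenal and gonads, was above 0 in gland 2 alone, at 0.0551 FPKM. Nr0b1, Nr0b2, Nr1i3, Nr2e1 and Nr2e3, receptors known from adrenal, liver, brain and retina, were listed at 0 in all 6 libraries.

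By level, the receptors most abundant in tumours were Nr1h2 at 46.9 FPKM, Nr2f6 at 34.8, Esrra at 31.9, Vdr at 24.9, Rxra at 22.6 and Rxrb at 21.8 FPKM. The most abundant in glands were Nr1h2 at 50.8 FPKM, Pparg at 37.1, Esrra at 27.8, Nr1h3 at 27.7, Nr2f6 at 27.3 and Rxra at 27.2 FPKM. Pparg and Nr1h3 thus stood among the leading receptors of the glands and not of the tumours. Neighbours in the gland order from Esrra to Rxra, and in the tumour order from Nr1h2 to Esrra and from Vdr to Rxrb, overlapped in their libraries. The 37 receptor genes summed to 240, 290 and 328 FPKM in tumours and 367, 368 and 361 FPKM in glands, so their sum was lower in every tumour. The largest falls in mean FPKM were those of Pparg (1.09 in tumours, 37.1 in glands), Nr1h3 (3.85 and 27.7) and Thra (8.95 and 25.5). Other abundant receptors, such as Nr2f6, Esrra and Vdr, had higher means in tumours. Between 12 and 14 receptors reached 5 FPKM in a tumour and 15 or 16 in a gland. Tumour 1 was the lowest of the tumours in 18 of the 26 tested members (69.2%) and in 42.7% of all tested genes, and it also had the largest FPKM sum. With all libraries scaled to a common sum, these shares were 73.1% of the members and 59.3% of all tested genes.

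Receptors act through coactivators and corepressors that they recruit to DNA. Of 16 coactivator genes 1 was higher (background 21.9%), 2 were lower (background 23.1%) and 13 did not pass. The median log2 difference was -0.05. Ppargc1b, a coactivator of PPARs and ERRs, was at 1.03 ± 0.280 FPKM in tumours and 3.01 ± 0.524 FPKM in glands (log2 difference -0.98, SE 0.19, adjusted p = 0.00575, or 0.0762 with quantile normalisation and 0.0740 without glands 1 and 3). Kmt2c, a histone methyltransferase, was at 3.20 ± 0.419 FPKM in tumours and 5.52 ± 0.796 FPKM in glands (log2 difference -0.63, SE 0.16, adjusted p = 0.0153), and lost its call without gland 1 (0.0672) or gland 3 (0.0614) and under 4 other alternatives. Prmt1, an arginine methyltransferase, was at 105 ± 19.7 FPKM in tumours and 69.7 ± 5.06 FPKM in glands (log2 difference 0.57, SE 0.15, adjusted p = 0.0187), and lost its call without gland 2 (0.0555) or gland 3 (0.0725). Carm1 (19.1 ± 4.39 FPKM in tumours, 21.0 ± 2.01 FPKM in glands) and Med1 (21.0 ± 3.93 FPKM in tumours, 17.7 ± 1.41 FPKM in glands) did not pass. Without gland 3, 1 coactivator was called.

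Of 11 corepressor genes 1 was higher (background 21.9%), 1 lower (background 23.1%) and 9 did not pass, with a median of 0.22. Hdac3, the deacetylase of the NCoR complex, was at 97.9 ± 1.81 FPKM in tumours and 55.8 ± 3.33 FPKM in glands (log2 difference 0.80, SE 0.09, adjusted p = 0.000663). Tbl1xr1, another subunit of that complex, was at 4.82 ± 0.611 FPKM in tumours and 7.25 ± 1.06 FPKM in glands (log2 difference -0.50, SE 0.15, adjusted p = 0.0332), and lost its call without gland 1, gland 3, tumour 2 or tumour 3 (adjusted p 0.0606 to 0.124). The general deacetylases Hdac1 (44.3 ± 7.83 FPKM in tumours, 35.6 ± 3.21 FPKM in glands) and Hdac2 (54.7 ± 3.92 FPKM in tumours, 45.7 ± 4.01 FPKM in glands) did not pass.

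Other transcription factors of fat cells, which act with PPARG, were lower in 4 (background 23.1%) and higher in 2 (background 21.9%) of 8 tested cases. Klf15 was at 1.28 ± 0.356 FPKM in tumours and 15.0 ± 1.84 FPKM in glands (log2 difference -2.82, SE 0.16, adjusted p = 5.44e-05), and Zfp423, a factor of fat cell precursors, at 0.237 ± 0.149 FPKM in tumours and 3.46 ± 0.360 FPKM in glands (log2 difference -1.85, SE 0.18, adjusted p = 0.000333). Ebf1 was at 0.824 ± 0.598 FPKM in tumours and 13.0 ± 0.848 FPKM in glands (log2 difference -3.00, SE 0.27, adjusted p = 0.000237). Cebpb, which precedes PPARG in fat cell formation and is also an epithelial factor, was higher at 212 ± 18.5 FPKM in tumours and 86.2 ± 4.48 FPKM in glands (log2 difference 1.29, SE 0.11, adjusted p = 0.000182). Cebpa was at 18.9 ± 4.66 FPKM in tumours and 21.6 ± 1.70 FPKM in glands (adjusted p = 0.408), and Tle3 at 23.6 ± 4.77 FPKM in tumours and 31.0 ± 4.23 FPKM in glands (adjusted p = 0.114, or 0.0498 without tumour 3). Not all genes of this list thus shared the direction of Pparg.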

How the data were processed

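RNA-seq libraries of 3 breast tumours and 3 mammary glands were compared, as tumour minus gland. Per the submitters' processing notes, the tools were HISAT2 and StringTie and the build mm10, with no version or role stated. The authors deposited 1 value per gene symbol and library with no unit named; the deposited values were read as FPKM, because they are not whole, are never negative and sum to different totals. Counts, read length, strandedness and depth are not given in any source used here. Low values did not fall on whole steps (34 of 556 tumour 1 and 2 pairs under 0.3 FPKM, 6.12%, shared the commonest ratio), so reads were not recovered.

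The 13364 genes averaging 1 FPKM or more were tested on log2(FPKM + 1), 2-sided, with limma 3.58.1 in R 4.3.3 with a mean-variance trend, Benjamini-Hochberg adjustment and a threshold of 0.05, after tests on simulated data. The added 1 understates the changes of low genes. An SE is that of limma's fit. Alternatives were a pseudocount of 0.1, no filter, a mean of at least 5, quantile, median-of-ratios and common-sum scaling, replicate number taken as a block, leaving out each library in turn or glands 1 and 3 together, and a fold of at least 2. Gene positions and overlaps come from GENCODE M21 (GRCm38). The genes, lists and alternatives were chosen with earlier results of these data known. The rule named every member and, in each pathway list, up to 4 called genes with the smallest p and up to 2 others with the highest mean, and 3 genes it names are not reported here. The alternatives for these list genes were added after seeing the data. No label pairs a gland with a tumour. Same-numbered libraries did not deviate together, but 3 libraries a group are too few to decide whether they were paired.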

Additional observations from a re-analysis of the deposited data

How the results depend on the processing

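Over all tested genes 6023 were called (2933 higher, 3090 lower), 1858 without glands 1 and 3 (760 higher, 1098 lower) and 2967 with a fold of at least 2 (1025 higher, 1942 lower). Leaving out 1 library gave 4217 to 6402. Of the members 11 were called, and 8 to 12 with 1 library left out. With a mean of at least 5, 5 of the 16 members tested were called, and 4328 of all 9766 genes. The replicate block gave 4728 calls over all genes and 10 among the members, ending Rora's (adjusted p = 0.0657). Among the genes named from other lists the block ended the calls of Kmt2c (0.0604) and Tbl1xr1 (0.0683) and added Apoc1 (0.0379) and Atp2a1 (0.0434). Deviations of same-numbered libraries had r of -0.05, -0.12 and -0.12 across genes, which are not independent. With 3 libraries a group the deviations also constrain each other. These r therefore cannot decide whether the numbers mark pairs. Of 375 comparisons of a member with its value under an alternative, 339 kept direction and call, 13 lost a call (4 members), 3 gained one and 20 turned direction (9 members, none called). Quantile normalisation moved the median of all genes by 0.12. Without glands 1 and 3, and without gland 1, Ppara and Nr2f1 fell under the filter and gave no value, and without gland 3 Nr2f1 did too. For the 52 genes that the rule names from other lists, 701 of 773 such comparisons kept direction and call, 35 lost a call, 24 gained one and 13 turned direction.

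Without glands 1 and 3 the log2 difference turned to 0.0709 in Nr1h2, -0.0266 in Nr2c1, -0.41 in Nr4a1, -0.23 in Nr4a2, 0.0835 in Rxrb, -0.14 in Thrb, -0.0983 in Acadl, 0.0826 in Plin2 and 0.000938 in Carm1. With quantile normalisation it turned to 0.12 in Nr2c2, 0.0442 in Nr3c2 and -0.0510 in Acadl. With a common sum it turned to -0.0499 in Nr2c1 and -0.0188 in Acadl, and with median-of-ratios to -0.000701 in Nr2c1. With 1 library left out it ran from -0.0645 to 0.107 in Nr2c1, -0.252 to 0.122 in Nr2c2, -0.475 to 0.0222 in Ppard, -0.0714 to 0.0331 in Rxrb and -0.197 to 0.235 in Thrb. It ran from -0.0160 to 0.165 in Acadl, -0.0526 to 0.0406 in Plin2, -0.283 to 0.0360 in Carm1 and -0.321 to 0.00331 in Cebpa. The cause was not tested. FPKM carry no counts, so the limit that depth sets is unknown.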
